A study of Mus musculus with 17 samples.

Results

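The libraries described here were the 2 made from SSCs and the 3 made from OPCs of mice homozygous for the Cxcr4 1013 allele (1013/1013), 5 of the 17 libraries of the study, chosen by their labels alone. They were compared across all genes with each other, and the difference was then set beside that of WT and +/1013 mice. The study asked how the 1013 allele, a knock-in that truncates the C-tail of Cxcr4 and leaves the receptor resistant to desensitization, affects skeletal cells. It sequenced the RNA of sorted stromal cells of flushed and collagenase-digested long bones. All 5 libraries carried the allele on both chromosomes in every cell of the mouse, so they hold no unmutated control of their own, and the WT and +/1013 libraries stand in for it. Each library was made from a pool of 3000 cells of 3 female mice aged 8 to 12 weeks, and a library is the replicate. SSCs were gated as CD45-, TER119- and CD31- cells positive for CD51, PDGFRα and Sca-1. OPCs were gated as such CD51-positive cells that lacked Sca-1 and were positive or negative for PDGFRα. The study also took stromal cells of the bone fraction as negative for lineage markers, c-Kit (gene Kit) and CD71 (gene Tfrc). Fewer cells of a type in a pool and less RNA per cell cannot be told apart in bulk RNA.

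Skeletal stem cells sit in the periosteum, the marrow stroma and around vessels, and give rise to osteoblasts, chondrocytes and adipocytes. Osteoprogenitors are committed to bone: Runx2 and then Sp7 switch on type I collagen, alkaline phosphatase and the small proteins of the mineralizing matrix. Cells positive for both Sca-1 and PDGFRα in adult tissues are also known as fibroblasts that secrete decorin, growth factor binding proteins and complement components.

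The SSC libraries held 44217695 and 50509592 gene counts and the OPC libraries 66649890 to 75727431, so depth did not overlap between the groups. Levels are TMM-normalised CPM (counts scaled to a common library size), and the detection limit of 3 counts per library came to 0.0416 to 0.0559 CPM. Such limits cover counting error only. SSC replicate 1 had 15748 genes with a count, against 19222 in SSC replicate 2 and 19195 to 21027 in the OPC libraries, and 2.36% of its counts lay on mitochondrial genes, against 0.642% and 0.277% to 0.426%. OPC replicate 2 held transcripts of leukocytes and erythroid cells that OPC replicates 1 and 3 nearly lacked. The labels name no sequencing run, so any batch that followed the cell type cannot be told apart from it.

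The sort separated the cells on Ly6a and Pdgfra, which checks the labels and is no finding. Ly6a (ENSMUSG00000075602.10, chr15:74994877-74998031 on mm10), which encodes Sca-1, stood at 1450 and 838 CPM in the SSC libraries and at 12.4, 6.07 and 1.08 CPM in the OPC libraries. Pdgfra (ENSMUSG00000029231.15, chr5:75152292-75198215), the PDGF receptor of mesenchymal cells, stood at 461 and 341 CPM in SSCs and at 54.8, 106 and 73.0 CPM in OPCs. Itgav, which encodes CD51, was present in both at 26.5 to 68.7 CPM and was called lower in SSCs. Tfrc, the CD71 gene, was called lower as well. Neither was called without SSC replicate 1, SSC replicate 2, OPC replicate 2 or OPC replicate 3. The fit of the 5 libraries alone called neither. The osteoblast markers were lower in SSCs. These markers say nothing of other cell types in the pools, whose transcripts are given below. Col1a1 (ENSMUSG00000001506.10, chr11:94936224-94953042) held 1639 and 2558 CPM in SSCs against 94177, 225164 and 175385 CPM in OPCs, and Bglap (ENSMUSG00000074483.2, chr3:88383501-88384464), which encodes osteocalcin, held 5.15 and 50.1 CPM against 497, 800 and 852 CPM. Ptprc, the CD45 gene, stood at 118 CPM in OPC replicate 2 and at 0.04 to 9.20 CPM in the other 4 libraries.

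Of 20238 genes tested, 2642 were called, that is 13.1%, with 1404 higher in SSCs (6.94%) and 1238 lower (6.12%). A call needed an adjusted p under 0.05 in edgeR's quasi-likelihood test and a change of at least 1.5-fold. Fold changes are log2 values of SSC over OPC with their SE, and their median over all genes tested was -0.20. The SSC libraries lay wholly above the OPC libraries for 18.4% of genes and wholly below for 21.8%, so a lack of overlap by itself says little with 2 against 3 libraries. The number of calls rested on single libraries. It was 1084 without SSC replicate 1, 4036 without SSC replicate 2 and 1662 without OPC replicate 3, and it was 511 when only the 5 libraries entered the fit, of which 492 were among the 2642.

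**Figure D1:**
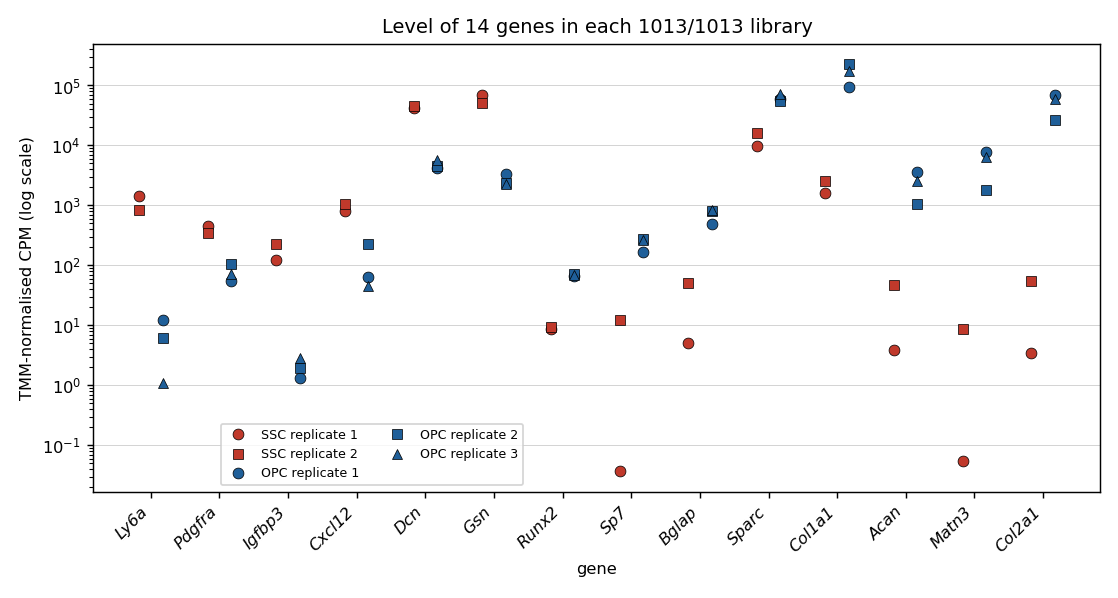
TMM-normalised CPM on a log scale (y axis) of 14 genes (x axis) in each library of 1013/1013 SSCs (red) and OPCs (blue), with the marker shape giving the replicate. The first 6 genes sit higher in both SSC libraries and the last 8 sit higher in all 3 OPC libraries, and SSC replicate 1 holds only 0.04 CPM of Sp7 and 0.06 CPM of Matn3.

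Of 10 transcription factors that set osteoblast fate, 5 were called lower in SSCs and none higher, with a median of -1.46. Without OPC replicate 3, 3 were called, and in the fit of the 5 libraries alone 1 was. Runx2 (ENSMUSG00000039153.17, chr17:44495987-44814797), the first factor of the osteoblast lineage, stood at 8.78 and 9.24 CPM in SSCs and at 67.6, 71.1 and 67.8 CPM in OPCs, and it fell by 2.93 on the log2 scale (SE 0.39, adjusted p = 0.000315). Both groups were tight, and SSCs still held a measurable level. Sp7, the zinc finger factor that acts after Runx2, was at 0.04 and 12.1 CPM in SSCs and at 169, 271 and 262 CPM in OPCs (log2 fold change -5.27, SE 1.35, adjusted p = 0.0208). Dlx3, a homeobox factor, and Creb3l1, which drives collagen secretion, were also called lower, at -3.97 and -1.72. Atf4, the stress and amino acid response factor, stood at 397 and 573 CPM in SSCs within reach of 437, 193 and 322 CPM in OPCs, and Dlx5 at 9.96 and 29.5 CPM against 30.9 to 40.9 CPM was not called.

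RUNX factors bind DNA at the letters AACCACA, and these letters, read on both strands, were counted in the 300 bases around each start (250 before and 50 after) in a RefSeq promoter table on GRCm38.p6. They occurred in 1731 of 32851 promoters (5.27%). Among the called members of the lists that the table holds, they occurred in 0 of 14 promoters of bone matrix genes and in 2 of 11 of chondrocyte genes. They occurred in 1 of 10 of collagen folding genes, in 1 of 6 of osteocyte genes and in 1 of 16 of the Sca-1-positive fibroblast genes that rose. The table held 11 of the 15 called bone matrix genes, 9 of 12 chondrocyte, 9 of 13 collagen folding, 5 of 6 osteocyte and 12 of 21 fibroblast genes. It held 1 of the 5 called transcription factors. The counts miss the other called genes and any site spelled otherwise, so they do not show that a list lacks RUNX sites. The Runx2 promoter held 3 copies. The promoters of 4 genes with the letters are printed 5′ to 3′ with AACCACA or its reverse complement TGTGGTT in capitals, to show Runx2 itself, an osteocyte gene and a cartilage gene that were lower in SSCs, and a fibroblast gene that was higher. They are Runx2 at chr17:44814578-44814877 on the minus strand, Dmp1 at chr5:104202367-104202666, Hapln1 at chr13:89540386-89540685 and Dpt at chr1:164796413-164796712, the last 3 on the plus strand.
Runx2: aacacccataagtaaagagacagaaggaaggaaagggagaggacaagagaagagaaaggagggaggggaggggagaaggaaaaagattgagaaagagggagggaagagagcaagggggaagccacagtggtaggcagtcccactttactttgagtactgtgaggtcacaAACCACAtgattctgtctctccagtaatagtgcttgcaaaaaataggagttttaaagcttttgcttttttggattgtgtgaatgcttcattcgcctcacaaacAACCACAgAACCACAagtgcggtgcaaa
Dmp1: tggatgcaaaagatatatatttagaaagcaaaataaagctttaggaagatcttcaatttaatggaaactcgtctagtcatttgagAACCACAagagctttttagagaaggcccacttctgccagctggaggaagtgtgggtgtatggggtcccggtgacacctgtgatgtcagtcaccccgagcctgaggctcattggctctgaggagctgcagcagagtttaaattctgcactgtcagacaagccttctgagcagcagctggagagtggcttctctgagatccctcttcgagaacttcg
Hapln1: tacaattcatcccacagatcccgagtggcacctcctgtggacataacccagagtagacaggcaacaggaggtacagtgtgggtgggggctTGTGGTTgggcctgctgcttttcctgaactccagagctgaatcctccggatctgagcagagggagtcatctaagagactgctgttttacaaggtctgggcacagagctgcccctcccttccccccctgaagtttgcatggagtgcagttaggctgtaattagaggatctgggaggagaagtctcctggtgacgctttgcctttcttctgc
Dpt: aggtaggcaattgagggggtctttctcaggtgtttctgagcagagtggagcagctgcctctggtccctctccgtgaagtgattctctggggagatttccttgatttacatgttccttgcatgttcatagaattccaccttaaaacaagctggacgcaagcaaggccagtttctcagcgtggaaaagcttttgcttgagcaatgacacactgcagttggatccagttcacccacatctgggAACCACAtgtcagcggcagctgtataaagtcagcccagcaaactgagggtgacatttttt
The letters stood in promoters of genes that moved in opposite directions, and a match is a description of these windows only.

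Most genes of the bone matrix and its mineralization were lower in SSCs. Of 22 genes, 15 were called lower and none higher, with a median of -3.33, and 11 to 17 were called lower whichever of the 5 libraries was left out. In the fit of the 5 libraries alone 1 was called. Col1a1 fell by 6.30 on the log2 scale (SE 0.69, adjusted p = 5.95e-05) and Col1a2, which supplies the other chain of type I collagen, fell by 4.42. The counts of both genes together made up 0.865% and 0.997% of an SSC library and 16.1%, 33.9% and 26.7% of an OPC library. Sparc, a collagen-binding protein of bone, was at 9895 and 16322 CPM in SSCs and at 59172, 55227 and 73306 CPM in OPCs (log2 fold change -2.25, SE 0.40, adjusted p = 0.00238). Every OPC library lay above both SSC libraries for these 3 genes.

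Further members of the list were called lower. Alpl, tissue-nonspecific alkaline phosphatase, stood at 19.1 and 332 CPM in SSCs and at 1031, 1328 and 1737 CPM in OPCs (log2 fold change -2.96, SE 0.86, adjusted p = 0.038). Smpd3, a sphingomyelinase needed for mineralization, stood at 43.4 and 16.4 CPM against 1107, 611 and 2162 CPM. Ifitm5, a membrane protein made by osteoblasts, was at 0.37 and 0.63 CPM in SSCs and at 60.0, 122 and 153 CPM in OPCs (log2 fold change -7.80, SE 0.73, adjusted p = 1.38e-05). Pth1r, the parathyroid hormone receptor, and Vdr, the vitamin D receptor, were both called lower, at -3.70 and -7.98. Ibsp, bone sialoprotein, and Spp1, osteopontin, did not pass the test, although their SSC libraries lay below all OPC libraries: Ibsp stood at 299 and 1539 CPM against 1636, 4938 and 5442 CPM. Bglap and its neighbour Bglap2 are near-identical copies, so the split of reads between them is uncertain, and both were called lower, at -4.70 and -2.15.

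Of 11 osteocyte genes tested, 6 were called lower in SSCs and none higher, and 2 were called in the fit of the 5 libraries alone. Dmp1, a phosphoprotein of osteocytes, was at 0.04 and 0.41 CPM in SSCs and at 329, 1280 and 529 CPM in OPCs (log2 fold change -11.63, SE 1.88, adjusted p = 0.00133). Dkk1, a secreted Wnt antagonist, had no count in either SSC library and 26.6, 53.1 and 35.4 CPM in OPCs, at least 692-fold lower in SSCs with the floor of 3 counts per library. Phex, a peptidase that restrains FGF23, Ptprz1, a receptor phosphatase, and Fam20c, the kinase of secreted phosphoproteins, were also called lower. Sost, which encodes sclerostin, was at no more than 0.98 CPM in any of the 5 libraries, and Fgf23 at no more than 1.45 CPM, so neither could be compared.

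Most genes that fold, hydroxylate and crosslink collagen were lower in SSCs. Of 21 genes, 13 were called lower and none higher, with a median of -1.61, and 6 were called without SSC replicate 1, 7 without OPC replicate 3 and 1 in the fit of the 5 libraries alone. Serpinh1, the collagen chaperone Hsp47, stood at 1025 and 942 CPM in SSCs and at 6632, 5591 and 9762 CPM in OPCs (log2 fold change -2.90, SE 0.41, adjusted p = 0.000565). Fkbp10, a prolyl isomerase, fell by 2.23, and the prolyl hydroxylases P4ha1, P4ha2 and P3h1 by 1.55, 1.96 and 2.36 on the log2 scale. Loxl4, a lysyl oxidase that crosslinks collagen, was at 2.42 and 21.9 CPM against 116, 125 and 173 CPM (log2 fold change -3.50, SE 0.76, adjusted p = 0.00873). Pcolce, which helps to cut the ends off procollagen, and Mia3, which loads collagen for export, were not called, at 0.70 and 0.22. Kdelr3, a retrieval receptor of the secretory pathway, and Sec24d, a coat protein that carries procollagen, were called lower.

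**Figure D2:**
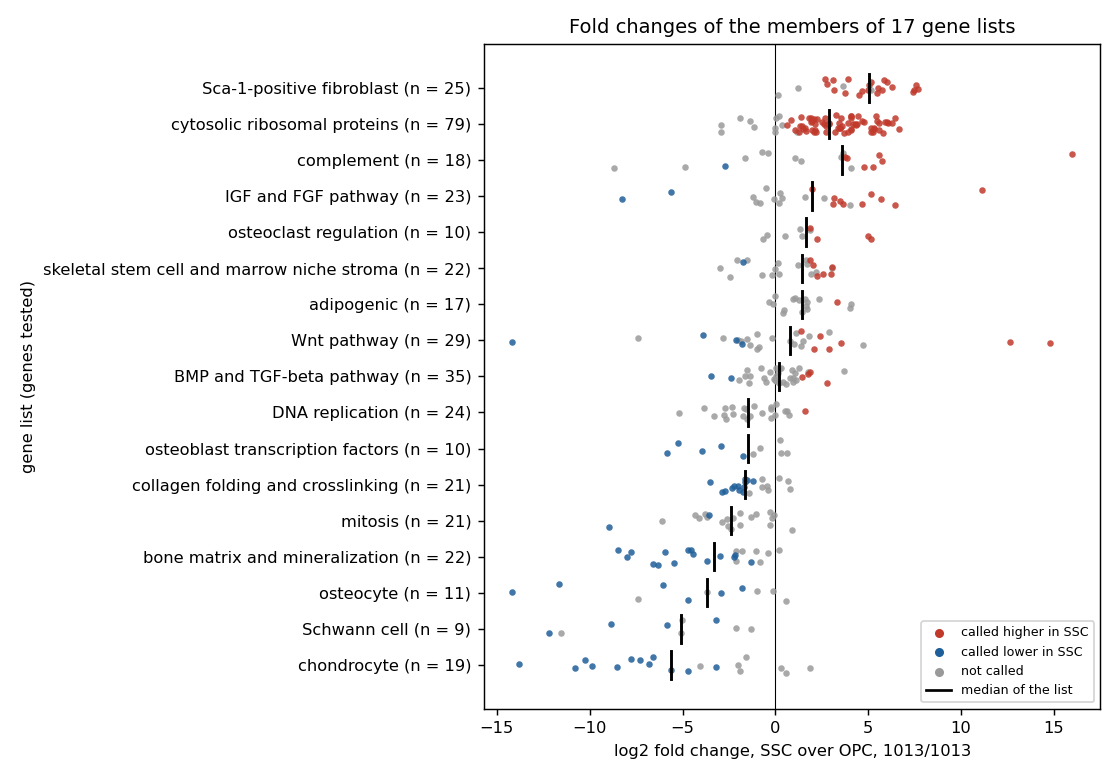
Log2 fold change of SSC over OPC in 1013/1013 mice (x axis) of every tested gene of 17 lists (y axis, with the number tested), coloured by call, with a black line at the list median. The Sca-1-positive fibroblast list lies to the right with a median of 5.02, and the bone matrix and chondrocyte lists to the left with medians of -3.33 and -5.60.

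Cartilage genes had the lowest median of the lists and were present in all 3 OPC libraries. Of 19 chondrocyte genes, 12 were called lower in SSCs and none higher, with a median of -5.60. Col2a1 (ENSMUSG00000022483.17, chr15:97975602-98004695), the collagen of cartilage, stood at 3.52 and 54.3 CPM in SSCs and at 70044, 26614 and 59056 CPM in OPCs (log2 fold change -10.81, SE 1.94, adjusted p = 0.00267). All 3 OPC libraries lay far above both SSC libraries. Acan, the large proteoglycan of cartilage, was at 3.89 and 46.2 CPM against 3582, 1072 and 2565 CPM (log2 fold change -6.59, SE 1.24, adjusted p = 0.00368). Matn3, a cartilage matrilin, was at 0.06 and 8.66 CPM against 7771, 1831 and 6471 CPM. In these 3 genes OPC replicate 2 was the lowest OPC library, and it was also the highest in Col1a1.

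The order of the OPC libraries was not the same for every cartilage gene. Col10a1, the collagen of hypertrophic chondrocytes, had 2 counts in all over both SSC libraries and stood at 12.8, 431 and 428 CPM in OPC replicates 1, 2 and 3. Matn1, a matrilin of resting cartilage, had no count in SSCs and 195, 72.4 and 480 CPM in OPCs, at least 4495-fold lower in SSCs. Sox9, the master factor of chondrocytes, was not called, at 41.1 and 126 CPM in SSCs against 504, 130 and 373 CPM in OPCs. Comp and Chad, matrix proteins shared with tendon, overlapped between the groups and reached 20930 and 11675 CPM in SSC replicate 2. Prg4, the lubricin of joint surfaces, stood higher in both SSC libraries, at 2612 and 2794 CPM against 213, 1254 and 751 CPM, and missed the threshold (adjusted p = 0.0542). SSC replicate 1 held lower levels than replicate 2 in each called gene of the list except Col10a1. Without SSC replicate 1 the median of the list was -5.04 and fewer members were called, as was so over all genes. In the fit of the 5 libraries alone, 2 of the 19 were called.

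Most genes of Sca-1-positive fibroblasts were higher in SSCs. Of 25 such genes, 21 were called higher and none lower, with a median of 5.02, and 18 to 22 were called whichever of the 5 libraries was left out. The list contains the gate gene Ly6a. Gsn, gelsolin, an actin-severing protein, stood at 69519 and 51384 CPM in SSCs and at 3280, 2362 and 2314 CPM in OPCs (log2 fold change 4.51, SE 0.48, adjusted p = 4.31e-05). Dcn, decorin, which binds collagen fibrils, stood at 41678 and 44986 CPM against 4198, 4558 and 5624 CPM (log2 fold change 3.18, SE 0.33, adjusted p = 4.09e-05). Clec3b, tetranectin, was at 613 and 409 CPM against 3.73, 3.10 and 0.66 CPM. Both SSC libraries lay above all OPC libraries in each of them.

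Genes that mark subsets of such fibroblasts rose as well. Pi16, a marker of adventitial fibroblasts, stood at 712 and 216 CPM in SSCs against 2.16, 14.7 and 1.28 CPM in OPCs. Cd248, endosialin, stood at 510 and 240 CPM against 2.84, 8.39 and 6.36 CPM (log2 fold change 6.0, SE 0.58, adjusted p = 1.98e-05). Cd34 was at 1768 and 728 CPM against 163, 60.2 and 54.1 CPM, and Ly6c1, a surface protein encoded near Ly6a, at 1012 and 679 CPM against 7.13, 4.54 and 1.68 CPM. SSC replicate 1 held the higher level of each of these 4 genes. Col14a1, a fibril-associated collagen, and Mfap5, a microfibril protein, were called higher at 5.49 and 5.82. The genes not called were Dpp4, C3, Col15a1 and Pcolce2, of which Dpp4 differed between the SSC libraries themselves, at 167 and 24.5 CPM.

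Among the 10 largest rises and 10 largest falls, most genes were at or near 0 in the other cell type. Of the rises, C7, Cyp2f2 and Dkk2 had no count in any OPC library. C7, a terminal complement component, stood at 220 and 49.3 CPM in SSCs, at least 2806-fold higher. Cyp2f2, a cytochrome P450, stood at 158 and 56.0 CPM, at least 2238-fold higher, and Dkk2, a Wnt modulator, at 39.3 and 76.5 CPM, at least 1207-fold higher. Ifi205, an interferon-inducible DNA sensor, and Ces1d, a carboxylesterase, had a single count in OPCs. Inmt, an amine methyltransferase, and Qprt, an enzyme of NAD synthesis, followed, together with Clec3b, Ly6c1 and Ftl1. Ces1d stood at 71.6 CPM in SSC replicate 1 and at 5.55 CPM in replicate 2, and Qprt at 41.2 and 13.1 CPM.

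The falls were led by Matn1 and included Dkk1 and Col10a1. Slc38a4, an amino acid transporter, Hapln4, a hyaluronan link protein, Creb3l3, a transcription factor, Slc2a5, the fructose transporter, Gpr37l1, an orphan receptor, Kcna1, a potassium channel, and Myog, the muscle factor myogenin, had no count in either SSC library. The bounds ran from at least 370-fold lower for Kcna1 to at least 804-fold lower for Slc38a4. Myog stood at 38.9, 53.1 and 2.39 CPM in OPCs, so OPC replicate 3 held little of it.

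Of 23 genes of the IGF and FGF pathways, which span ligands, receptors and binding proteins, 10 were called higher and 2 lower, with a median of 1.98, and the lower calls were 1 without SSC replicate 1 or OPC replicate 1 and 4 without SSC replicate 2. Igf1 itself stood at 283 and 256 CPM in SSCs and at 28.9, 18.4 and 17.3 CPM in OPCs (log2 fold change 3.65, SE 0.47, adjusted p = 0.00025). Among its binding proteins, Igfbp3 stood at 121 and 224 CPM against 1.30, 1.91 and 2.87 CPM, the largest change of the 5 that were called (log2 fold change 6.41, SE 0.66, adjusted p = 3.33e-05). Igfbp6 rose by 5.16, and Igfbp4, Igfbp5 and Igfbp7 by 3.11, 3.46 and 3.16 on the log2 scale. The receptor Igf1r was at 6.06 to 16.7 CPM in all 5 libraries and was not called.

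Of the FGF ligands, Fgf2, Fgf7, Fgf10 and Fgf18 were called higher in SSCs. Fgf7, a ligand made by mesenchyme for epithelia, was at 50.2 and 44.0 CPM against 0.86, 1.85 and 0.00 CPM, and Fgf18, which acts on bone and cartilage, at 23.8 and 25.7 CPM against 0.78, 1.28 and 0.91 CPM. Fgf10 had no count in OPCs and stood at 1.96 and 7.19 CPM in SSCs, at least 95.4-fold higher. The receptors Fgfr3, which brakes chondrocyte growth, and Fgfr4 were called lower. Fgfr3 stood at 0.07 and 13 CPM in SSCs and at 440, 122 and 405 CPM in OPCs, with the same order of the OPC libraries as Col2a1. Fgfr1 was not called, at 179 and 156 CPM against 248, 363 and 267 CPM.

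Wnt pathway genes moved both ways. Of 29 genes of the pathway, 7 were called higher and 4 lower, with a median of 0.79, and 4 were called higher and 2 lower without OPC replicate 1. The antagonists Sfrp1, Sfrp4 and Dkk3, and Dkk2, were higher in SSCs, whereas Dkk1 was lower. Sfrp4 stood at 1103 and 864 CPM in SSCs and at 72.9, 94.0 and 88.1 CPM in OPCs (log2 fold change 3.53, SE 0.39, adjusted p = 7.2e-05). The ligand Wnt2 had no count in OPCs and stood at 17.1 and 8.92 CPM in SSCs, at least 271-fold higher, and the ligand Wnt5b was called lower at -2.12. The receptors Fzd8 and Lrp6 were called higher, and the co-receptor Lrp5 lower, at 4.42 and 2.68 CPM against 16.2, 9.63 and 11.6 CPM. Tcf7, a nuclear effector, was called lower at -3.90, and the target gene Axin2 was at no more than 0.42 CPM in all 5 libraries.

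In the BMP and TGF-beta pathway 4 of 35 genes were called higher and 2 lower, with a median of 0.17, and 4 were called lower without SSC replicate 1. The ligand Bmp3 was lower in SSCs, at 25.1 and 3.26 CPM against 125, 201 and 149 CPM (log2 fold change -3.48, SE 0.67, adjusted p = 0.0043). Tgfb1 was lower as well, at 16.8 and 26.2 CPM against 76.4, 135 and 133 CPM, whereas Tgfb3 rose by 1.75. The extracellular BMP modulators Bmper and Chrd and the ligand Bmp5 were higher, at 2.76, 1.84 and 1.42. The share of called members was near the 13.1% of all genes.

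Of 5 genes of the CXCR4 axis, the ligand Cxcl12 and the receptor Ackr3 were called higher in SSCs. Cxcr4 (ENSMUSG00000045382.6, chr1:128588199-128592293), the gene that carries the truncation, stood at 0.11 and 0.84 CPM in SSCs and at 5.52, 18.5 and 4.55 CPM in OPCs. The groups did not overlap, and the change of -4.32 (SE 1.65) missed the threshold in edgeR's test (adjusted p = 0.105). Cxcr4 was called lower in 2 of 17 alternatives, and DESeq2 called 1 gene of the axis lower. The highest level of Cxcr4 was in OPC replicate 2, the library with leukocyte transcripts. Counts per gene cannot tell the 1013 allele from the WT allele. Cxcl12, its ligand, was called higher in SSCs, at 797 and 1061 CPM against 62.9, 230 and 46.1 CPM (log2 fold change 3.04, SE 0.83, adjusted p = 0.028). Ackr3, the scavenger receptor for the same ligand, stood at 391 and 723 CPM against 157, 149 and 158 CPM (log2 fold change 1.85, SE 0.36, adjusted p = 0.00444). Without SSC replicate 1, SSC replicate 2, OPC replicate 1 or OPC replicate 3, 1 of the axis genes was called, and none was called in the fit of the 5 libraries alone.

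Niche genes rose in part. Of 22 genes of skeletal stem cells and marrow stroma, 6 were called higher and 1 lower. Without SSC replicate 1, 4 were called higher and none lower, and without SSC replicate 2 the lower calls were 2. Lepr, the leptin receptor of perivascular stroma, stood at 144 and 239 CPM in SSCs and at 36.7, 64.2 and 38.1 CPM in OPCs (log2 fold change 2.05, SE 0.35, adjusted p = 0.00218). Prrx1, a limb mesenchyme factor, Ebf1, a transcription factor of niche stroma, and Gas6, a ligand of TAM receptors, rose by 1.89, 3.02 and 2.56. Csf1, the macrophage growth factor, stood at 164 and 160 CPM against 34.6, 43.2 and 26.4 CPM. Cd200 was the called member that was lower, at 59.0 and 109 CPM against 253, 283 and 318 CPM. Grem1 and Gli1, used in lineage tracing of skeletal stem cells, were not called, at 0.17 and -0.03.

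Of 10 regulators of osteoclasts, 4 were called higher in SSCs, Csf1, Il34, Ccl2 and Il6. Il6, an inflammatory cytokine, stood at 74.9 and 765 CPM in SSCs and at 23.4, 2.70 and 8.90 CPM in OPCs, and Ccl2, a monocyte chemokine, at 17 and 143 CPM against 4.88, 1.45 and 1.10 CPM. SSC replicate 2 led both genes, and 1 or 2 of the 10 were called without it, without OPC replicate 2 or without OPC replicate 3. Tnfsf11, which encodes RANKL, was at 1.5 and 4.19 CPM against 0.89, 4.88 and 6.06 CPM and was not called, and Tnfrsf11b, its decoy receptor osteoprotegerin, overlapped between the groups.

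Of 18 complement genes, 7 were called higher in SSCs and 1 lower, with a median of 3.58. C1s1 and C1ra, the proteases of the first component, stood at 553 and 364 CPM and at 464 and 326 CPM in SSCs, against 8.90 to 14.6 CPM and 9.43 to 19.9 CPM in OPCs. Serping1, their inhibitor, stood at 4178 and 3878 CPM against 451, 223 and 213 CPM (log2 fold change 3.77, SE 0.72, adjusted p = 0.00408). C3 was not called, since OPC replicate 2 held 220 CPM against 5.70 and 2.87 CPM in OPC replicates 1 and 3. Cd59a, which blocks the membrane attack complex, was the member called lower, at 3.12 and 8.73 CPM against 29.4 to 48.7 CPM.

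Few proliferation genes passed edgeR's test, although both list medians lay below that of all genes. The medians were -1.46 for DNA replication and -2.39 for mitosis. They were 0.06 and -0.89 in WT, and 0.08 and -2.75 in +/1013. No member was called for a difference from WT. DESeq2 called 7 genes lower in each list, and 1 replication gene higher. Of 24 DNA replication genes in the edgeR fit, Pcna, the sliding clamp, was the sole call. It was higher in SSCs, at 42.4 and 65.0 CPM against 16.4 to 19.8 CPM. Of its 32-base words, 37.5% also occur in pseudogenes. Of 21 mitosis genes, Ccnb2, a cyclin, and Bub1b, a checkpoint kinase, were called lower, and neither list had a lower call without SSC replicate 1, while 7 replication genes were called lower without SSC replicate 2. Bub1b had 0.02 CPM in each SSC library and 8.02, 18.7 and 4.0 CPM in OPCs. OPC replicate 2 was the highest OPC library for both, as it was for Mcm2, a helicase subunit, at 75.5 CPM against 15.0 and 24.1 CPM, and it also held the leukocyte and erythroid transcripts. The part of those cells in these values was not tested.

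**Figure D3:**
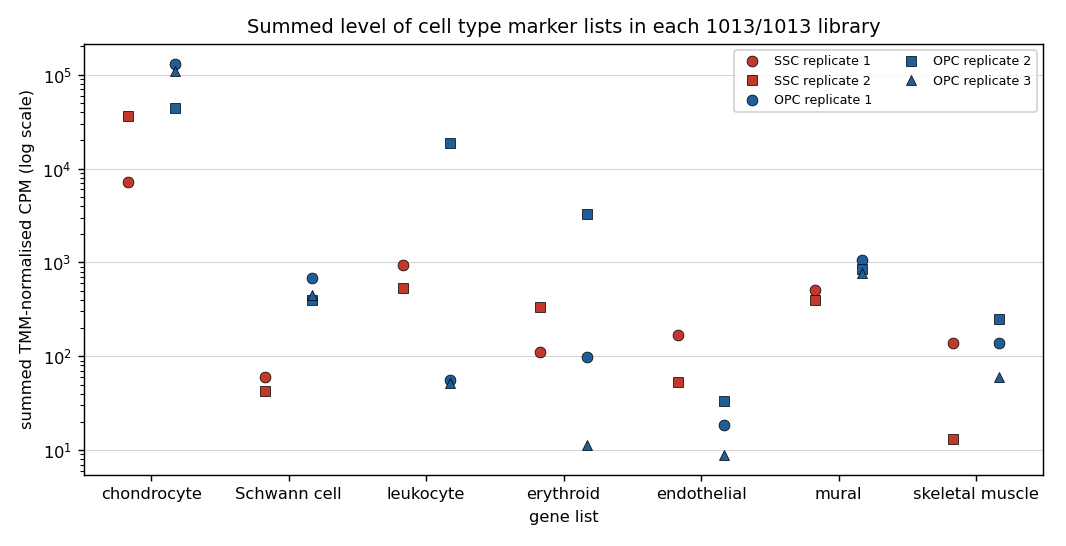
Summed TMM-normalised CPM on a log scale (y axis) of 7 lists of cell type markers (x axis) in each 1013/1013 library of SSCs (red) and OPCs (blue), with the marker shape giving the replicate. Leukocyte and erythroid sums are high in OPC replicate 2, at 18763 and 3300 CPM, chondrocyte and Schwann cell sums are higher in all 3 OPC libraries, and endothelial sums are higher in both SSC libraries.

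Leukocyte and erythroid markers were led by OPC replicate 2. The 20 leukocyte genes summed to 932 and 531 CPM in SSCs and to 51.8 to 18763 CPM in OPCs, and none was called. Ltf, the lactoferrin of neutrophil granules, stood at 4050 CPM in OPC replicate 2 and at no more than 0.97 CPM elsewhere. Without this library the median of the leukocyte list went from -2.13 to 3.54, and that of the erythroid list from -4.07 to 0.75. Endothelial genes summed to 170 and 53.1 CPM in SSCs and to 8.82 to 33.0 CPM in OPCs, with Tek, the angiopoietin receptor, called higher and Cdh5, VE-cadherin, at no more than 1.96 CPM. Mural genes had Acta2, smooth muscle actin, and Cspg4, NG2, called lower in SSCs, whereas Rgs5 stood at 141 and 19.6 CPM against 3.71 to 8.85 CPM and was not called. Tek was not called without SSC replicate 1 or OPC replicate 3, and no mural gene was called without SSC replicate 1 or OPC replicate 1.

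Of 9 Schwann cell genes tested, 4 were called lower in SSCs and none higher, with 1 called without SSC replicate 1, and the sum of the list was 60.4 and 42.2 CPM in SSCs against 397 to 675 CPM in OPCs. Sox10, a neural crest factor, had no count in SSCs and stood at 6.64, 16.9 and 5.10 CPM in OPCs, at least 172-fold lower. Ncmap, a protein of peripheral myelin, stood at 0.06 and 7.39 CPM against 302, 79.1 and 247 CPM. Its order of the OPC libraries was that of Col2a1, whereas Sox10 was highest in OPC replicate 2. Of muscle genes, Pax7, the satellite cell factor, was called lower at -5.98, and Acta1, skeletal actin, was at 5.29 to 185 CPM over the 5 libraries without a call. The part of such cells in the OPC values was not tested.

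Counts of genes of cytosolic ribosomal proteins were higher in SSCs. Of 79 such genes tested, 68 were called higher in SSCs and none lower, with a median of 2.90, and 56 were called in the fit of the 5 libraries alone. Rpl19, a protein of the large subunit, stood at 97.3 and 101 CPM in SSCs and at 1.93, 1.96 and 2.25 CPM in OPCs (log2 fold change 5.60, SE 0.21, adjusted p = 5.97e-09). Rps6, the phosphorylated protein of the small subunit, was at 170 and 155 CPM against 2.57, 3.13 and 5.42 CPM. Rpl8 and Rps3 were not called, at 0.00 and 0.02, with 205 to 264 CPM and 190 to 255 CPM over the 5 libraries. Rps10 and Rpl24, which every cell uses, lay at no more than 0.553 CPM in all 5 libraries, so their counts cannot stand for their RNA.

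The difference was then set beside how much sequence a gene shares with pseudogenes. For 8150 protein-coding genes that averaged 10 CPM or more, the share of 32-base words of the longest transcript that also occur in annotated pseudogene transcripts was computed. Of 76 genes with over 50% of words shared, 60 were called higher in SSCs and none lower, with a median of 1.94. Of the 52 of them that are not ribosomal protein genes, 36 were called higher. Ribosomal protein genes with up to 50% of words shared were called higher in 35 of 41 cases (85.4%), with a median of 2.51. Of 5527 genes with no shared word, 544 were called higher and 674 lower, with a median of -0.18. Ftl1, the ferritin light chain, shared 48.4% of its words and stood at 677 and 653 CPM in SSCs against 1.90, 3.57 and 5.11 CPM in OPCs, while Fth1, the heavy chain, with 7.59% shared, rose by 2.28. Reads that fit more than 1 place and were left uncounted made up 6.76% and 8.56% of an SSC library and 8.70% to 9.92% of an OPC library. Counts of genes with such copies are uncertain, and the part of the counting in this difference was not tested.

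**Figure D4:**
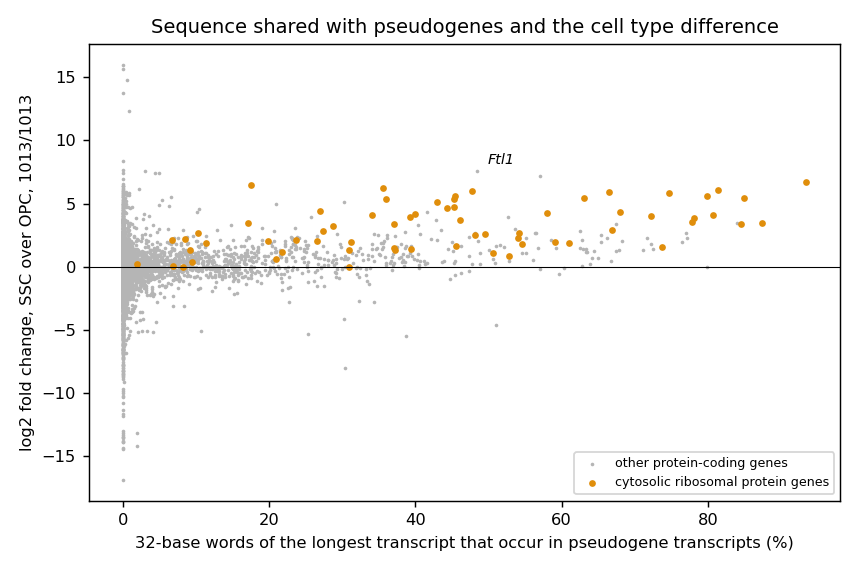
Share of 32-base words of the longest transcript found in annotated pseudogene transcripts (x axis, %) and log2 fold change of SSC over OPC in 1013/1013 mice (y axis) for 8150 protein-coding genes, with cytosolic ribosomal protein genes in orange. Genes with a share over 50% lie mostly above 0, with a median of 1.94, and genes with no shared word spread on both sides.

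The cell type difference of 1013/1013 mice was set beside that of the other genotypes, which share no library with it. Across 8197 genes that averaged 10 CPM or more, its fold changes correlated with those of WT with r = 0.76 and with those of +/1013 with r = 0.877. Genes are not independent replicates, and these values are descriptions. WT gave 2308 calls (11.4%) and +/1013 gave 2521 (12.5%). Among the 8197 genes, 942 were called in both 1013/1013 and WT, which is 48.7% of the calls of 1013/1013 and 52.8% of those of WT, and 6 of them had opposite signs. With +/1013 it shared 1351 calls, 69.9% and 72.4% of each, and none had opposite signs. The medians of the bone matrix list were -3.33 in 1013/1013, -3.43 in WT and -3.95 in +/1013, and those of the chondrocyte list were -5.60, -2.98 and -4.79.

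The difference between genotypes was tested directly, as the SSC over OPC change of 1013/1013 minus that of WT. It was called for 31 of 20238 genes (0.153%), 24 in the positive direction (0.119%) and 7 in the negative (0.0346%), while 3037 genes had an unadjusted p under 0.05. None was a bone matrix, chondrocyte or Sca-1-positive fibroblast gene, which says little for such short lists at a share of 0.153% of all genes. Genes of the ribosomal protein list made up 17 of the 24 positive calls. The WT SSC libraries had 21449 to 22599 genes with a count, against 15748 and 19222 in 1013/1013 SSCs. Reads on no feature made up 3.68% to 4.15% of WT SSC libraries and at most 2.69% of 1013/1013 SSC libraries. The OPC libraries of WT and 1013/1013 overlapped in both measures. The part of these library differences in the calls was not tested. Ctsl (ENSMUSG00000021477.9, chr13:64359337-64370890), the lysosomal protease cathepsin L, stood at 1407 and 1342 CPM in 1013/1013 SSCs and at 273, 274 and 291 CPM in OPCs, and the means of WT were 498 CPM in SSCs and 419 CPM in OPCs. Its change exceeded that of WT by 2.05 (SE 0.32, adjusted p = 0.023). Rpl37a and Rpl32 exceeded it by 1.99 and 1.83. Rpl8 differed too, by 1.55, with a mean of 90.6 CPM in WT SSCs, with 8.19% of its words shared with pseudogenes.

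In the negative direction, Anapc1, a subunit of the anaphase-promoting complex, stood at 16.7 and 28.4 CPM in 1013/1013 SSCs and at 79.1, 112 and 76.4 CPM in OPCs, with WT means of 67.7 and 57.7 CPM (difference -2.21, SE 0.38, adjusted p = 0.0371). Ccnl2, a cyclin that regulates splicing, stood at 46.9 and 36.6 CPM against 41.9, 29.7 and 43.2 CPM, with WT means of 162 CPM in SSCs and 32.3 CPM in OPCs (difference -2.20, SE 0.31, adjusted p = 0.0202). The remaining 5 had larger fitted differences, -7.35 for Caprin2, -11.59 for Shc4, -11.44 for Morn4, -8.11 for 2310030G06Rik and -8.01 for Serpina3c. These are no bounds, since Shc4, Morn4 and 2310030G06Rik had no count in 1013/1013 SSCs and Serpina3c none in WT OPCs. Serpina3c was higher in SSCs of 1013/1013 mice too, at 41.4 and 26.9 CPM against 1.90, 1.23 and 3.29 CPM. These calls were fragile. None was made when only the 4 groups compared entered the fit, none without 1013/1013 SSC replicate 1 and none without WT OPC replicate 3, and 1960 were made without 1013/1013 SSC replicate 2. Against +/1013, edgeR called 0 genes, with 1129 at an unadjusted p under 0.05 and a smallest adjusted p of 0.0651, and DESeq2 called 224.

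**Figure D5:**
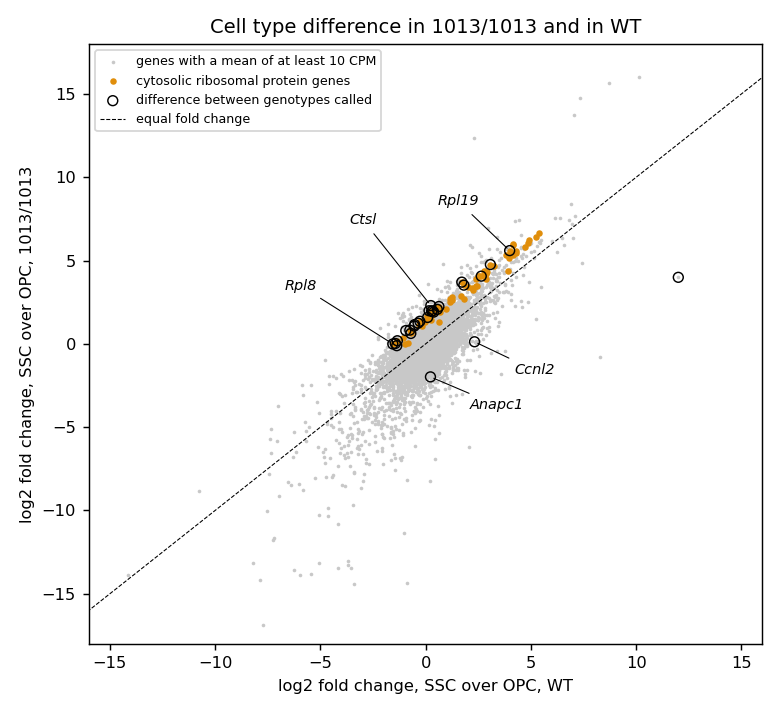
Log2 fold change of SSC over OPC in WT (x axis) and in 1013/1013 mice (y axis) for 8197 genes that averaged 10 CPM or more, with ribosomal protein genes in orange and genes whose difference between the genotypes was called circled. The fold changes of the 2 genotypes correlate with r = 0.76, and 71.8% of the genes have the same sign in both. Most ribosomal protein genes lie above the dashed line of equal change.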

How the data were processed

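RNA was measured by bulk RNA-seq in pools of sorted cells. Per the study's methods, the authors made cDNA with SMART-Seq v4 and libraries with Nextera XT, sequenced paired ends, discarded reads below a length limit, mapped the rest to mm10 using STAR and assigned them to genes using HTSeq. Versions, annotation and strand setting are not given in the sources used here. The deposited values were raw counts of reads per gene, unnormalised, for 55335 gene identifiers in 17 libraries. Of these, 55154 were matched to GENCODE M21 names and 181 were not. HTSeq's summary lines (no feature, ambiguous, not unique) named no gene and stayed out of library sizes. They made up 11.5% to 14.9% of reads in the 5 libraries compared. SMART-Seq has no molecular identifiers, so counts are not independent molecules.

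Counts were normalised by TMM and tested by edgeR 4.0.16 in R 4.3.3 with the quasi-likelihood test, after edgeR's filter on low counts. All 17 libraries entered 1 fit as 6 groups (11 residual degrees of freedom). Of these, WT and +/1013 had 3 libraries in each cell type. SE is the log2 fold change over the square root of the F statistic. P-values were adjusted by the Benjamini-Hochberg method over all 20238 genes tested, and a call needed 1.5-fold. Differences between genotypes were interaction terms of the same fit. P-values measure the spread between these pools. The steps were tested on simulated data. DESeq2 1.42.0 was an alternative, with other normalisations, filters, library sets and a replicate block.

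Named genes were the 10 largest rises and 10 largest falls among calls that averaged 10 CPM or more and whose groups were apart, the 3 largest differences each way between genotypes (2 met the level in the negative direction), members of 30 gene lists with those called first and the defining members, the sort genes and 4 markers. Ribosomal, pseudogene-rich and low-level genes named beside them, such as Rpl8, Rps10 and Fth1, and the smaller differences between genotypes were chosen after their values were seen. The members and lists were chosen with earlier results of these data known. Promoters came from a RefSeq table on GRCm38.p6. Values of some called list members are not reported here.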

Additional observations from a re-analysis of the deposited data

Results flagged for a closer look

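The change from OPCs to SSCs differed between 1013/1013 and WT mice for 31 genes by the interaction test of edgeR. Among those with at least 10 CPM, the difference of the log2 fold changes was 2.05 for Ctsl (SE 0.32, adjusted p = 0.023), 1.99 for Rpl37a (SE 0.35, adjusted p = 0.0397) and 1.83 for Rpl32 (SE 0.28, adjusted p = 0.023). It was -2.21 for Anapc1 (SE 0.38, adjusted p = 0.0371) and -2.20 for Ccnl2 (SE 0.31, adjusted p = 0.0202). No cause of these differences was tested. Groups of 2 and 3 libraries were too small for a test of single outlying libraries.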

How the results depend on the processing

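The 2642 calls between 1013/1013 SSCs and OPCs became 4772 with DESeq2 (2056 higher and 2716 lower) and 511 with only the 5 libraries. They ranged from 1084 (without SSC replicate 1) to 4036 (without SSC replicate 2) when 1 library was left out. Without SSC replicate 2 the calls were 1495 higher and 2541 lower and the median of all genes was -0.53. With alternatives chosen after seeing the data, 1145 calls were made without SSC replicate 1 at thinned depth, and 0 with a replicate block in the 5 libraries alone, where edgeR gave 1520 genes an unadjusted p under 0.05. Other normalisations, filters and a replicate block in all libraries (2063 calls) stayed within 1.5 times. The labels do not say that a replicate number marks shared mice or a shared day. With 2 SSC libraries, whose deviations mirror each other, correlations of deviations could not test the pairing.

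For the difference from WT, the 31 calls became 1142 with DESeq2, 5 with no filter, 56 with at least 10 counts in every library, 19 with the replicate block and 0 with only the 4 groups compared, and ranged from 0 to 1960 with 1 library left out. For the difference from +/1013, the 0 calls of edgeR became 224 with DESeq2 and ranged from 0 to 1276.

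Directions turned in single alternatives for a few values, given as the range with 1 of the 5 libraries left out. The log2 fold change ran from -9.94 to 2.78 for Ptprc, from -1.79 to 7.43 for Kit, from -7.87 to 6.87 for Fgf23, from -14.06 to 1.18 for Ltf, from -2.15 to 1.20 for Chad, from -1.26 to 1.37 for Comp, from -9.27 to 1.21 for Grem1 and from -2.31 to 0.068 for Tnfrsf11b. The list medians ran from -2.60 to 3.54 for leukocyte, from -10.72 to 0.75 for erythroid, from -1.21 to 2.66 for sort genes, from -0.010 to 1.62 for the niche, from -0.51 to 0.78 for BMP and TGF-beta and from -0.18 to 0.84 for immediate-early genes. Positive ends of Ptprc, Kit, Fgf23, Ltf and the leukocyte, erythroid and sort lists came without OPC replicate 2. Negative ends of Chad, Comp, Grem1 and the last 3 lists came without SSC replicate 2. At thinned depth without SSC replicate 1, Tnfrsf11b was 0.094, and with the replicate block in the 5 libraries Grem1 was -3.35 and Tnfsf11 0.28. The cause was not tested. The limits are 2 SSC libraries, a depth that differed between cell types, and near-identical gene copies.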

Other observations

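Hox genes moved both ways. Of 32 tested, Hoxa9, Hoxa11, Hoxd9, Hoxd10 and Hoxd11, which pattern the limb, were called higher in 1013/1013 SSCs, and Hoxa6, Hoxb2, Hoxb7 and Hoxc8 lower, with a median of -0.04. The lower calls were 1 without SSC replicate 1, the higher calls 3 without OPC replicate 2, and none of either was made in the fit of the 5 libraries alone. Of 44 collagen genes, 16 were called lower, and Col14a1, Col3a1, Col6a6 and Col8a1 higher. Without SSC replicate 1, 9 were called lower, and in the fit of the 5 libraries alone 2 were called lower and 1 higher. Of 14 tendon and periosteum genes, the matrix proteins Aspn and Ogn and the secreted factor Angptl7 were called higher, and Col12a1 and Tnc lower. The lower calls of this list were 1 without OPC replicate 1, 4 without SSC replicate 2 and none without SSC replicate 1, and the fit of the 5 libraries alone made no call in it.

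Of 17 adipogenic genes, Lpl, lipoprotein lipase, was called higher, with no call without SSC replicate 1 or in the fit of the 5 libraries alone. Of 20 interferon response genes, Bst2 and Gbp2 were called higher, with 1 called without OPC replicate 1 and none without SSC replicate 1 or OPC replicate 3. Of 18 immediate-early and heat shock genes, Hspa8 was called higher, and 77.1% of its words are shared with pseudogenes. Over all genes 6.94% were called higher, and the calls in the adipogenic, interferon and immediate-early lists lay near that share. Of 12 genes encoded by the mitochondrial genome, mt-Nd2, mt-Nd3 and mt-Nd4 were called higher, with 8 called without SSC replicate 2, 1 without OPC replicate 1 or 2, and none without OPC replicate 3 or without SSC replicate 1, the library with the highest mitochondrial share.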
